A study of Mus musculus with 7 samples.

Results

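The Ly6 family genes described here are Ly6a, which encodes the surface protein SCA-1, and its relatives Ly6e, Ly6c1, Ly6c2, Ly6d, Ly6g and Ly6k. The 7 genes were chosen by name, and 5 of them (Ly6a, Ly6e, Ly6d, Ly6g and Ly6k) were among the 23930 genes of the count tables. Ly6c1 and Ly6c2 were not analysed here. Of the 5, Ly6a and Ly6e had enough reads to be among the 11429 genes tested, and Ly6d, Ly6g and Ly6k did not.

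Ly6 proteins are small, cysteine-rich proteins that fold into a compact domain held by disulfide bonds, and most are tied to the outer face of the membrane by a glycosylphosphatidylinositol (GPI) anchor. In mouse bone marrow they serve mainly as sorting markers. SCA-1 defines, with c-KIT and the absence of lineage markers, the LSK fraction that holds stem and multipotent progenitor cells, LY6G marks neutrophils, LY6C marks monocytes and LY6D marks lymphoid progenitors. Ly6a and Ly6e are also known as genes that interferons induce, and Ly6k is known for its role in male germ cells.

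The study measured RNA in bone marrow cells sorted by flow cytometry from pMT-10 mice, which overexpress interleukin-10 (IL-10), and from C57BL/6 (BL/6) controls. In pMT-10 mice the Il10 transgene is driven by a metallothionein promoter that zinc switches on, and every mouse of both strains had zinc in its drinking water for 15 days, so no group is free of zinc. The 7 libraries fall into 4 groups: common myeloid progenitors (CMPs) of pMT-10 mice (2 libraries), CMPs of BL/6 mice (2), LSK cells positive for CD150 and CD48 of pMT-10 mice (2), and hematopoietic stem cells (HSCs) of pMT-10 mice (1). The labels do not give the age of the mice or the gates used to sort CMPs and HSCs. They also do not say that replicates are different mice, and the spread that p-values rest on here is that between libraries, which may be technical. The question put to the CMPs is what IL-10 overexpression changes, and the other comparisons set progenitor populations against each other.

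Both pMT-10 CMP and both LSK libraries came from 1 sequencing chip, and both BL/6 CMP libraries and the HSC library from another. In the CMPs, strain and chip therefore cannot be told apart. LSK against pMT-10 CMP lies within 1 chip, and so does HSC against BL/6 CMP, where population and strain both differ. Library totals ran from 7372430 counts (HSC) to 13854314 (LSK replicate 2), and a count of 0 allows up to 3 counts, or 0.217 to 0.407 CPM, where CPM are counts per 1000000 of the library. Il10 itself had 0 to 2 counts in every library, so it does not check the strain labels in these cells. Of the population markers, Cebpa was at 38.7 to 80.5 CPM in the 4 CMP libraries, 8.85 to 12.2 CPM in LSK and 2.38 CPM in HSC. The 10 CMP marker genes together did not follow it. They summed to 883 and 1068 CPM in pMT-10 CMP, 1761 and 1684 in BL/6 CMP, 1835 and 2042 in LSK and 780 in HSC. Gata2 made up 1448 and 1511 CPM of the LSK sums. Without Gata2 the sums were 568 and 892 in pMT-10 CMP, 998 and 952 in BL/6 CMP, 387 and 531 in LSK and 523 in HSC. Mecom, a stem cell transcription factor, was at 47.6 CPM in HSC and 2.31 to 4.09 CPM elsewhere, and Cd48 was at 40.5 and 63.6 CPM in LSK and 6.48 CPM in HSC. The summed CPM of 10 erythroid genes was 7649 to 9609 in LSK, 7145 to 11795 in the CMP libraries and 712 in HSC. Car1, a carbonic anhydrase, made up most of it, and without Car1 the sums were 589 to 740 in LSK, 678 to 1316 in CMP and 286 in HSC.

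The 7 genes lie in 1 cluster on mouse chromosome 15 (build GRCm38, the same sequence as the mm10 of the study; GENCODE M21 annotation), from Ly6d at 74762056 to Ly6g at 75159126, a span of 397.1 kb. Ly6a occupies chr15:74994877-74998031 on the minus strand and Ly6e chr15:74955051-74959905 on the plus strand, with start sites 43 kb apart. The cysteine-rich stretch of the Ly6a and Ly6e coding sequences is shown because these genes carry nearly all the family's reads and because their likeness to other members bears on what an amplicon count can hold. Each run has 300 bases and ends at the codon after the last cysteine codon (coding bases 16 to 315 of each, from the GENCODE M21 transcripts). The capitals mark the codons TGT and TGC, which encode cysteine.
Ly6a: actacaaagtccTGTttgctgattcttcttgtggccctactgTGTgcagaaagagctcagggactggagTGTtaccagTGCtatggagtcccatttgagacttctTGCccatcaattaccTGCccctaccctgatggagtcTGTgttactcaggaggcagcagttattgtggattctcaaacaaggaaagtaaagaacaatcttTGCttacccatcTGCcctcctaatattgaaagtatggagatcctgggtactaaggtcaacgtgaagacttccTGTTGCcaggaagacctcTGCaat
Ly6e: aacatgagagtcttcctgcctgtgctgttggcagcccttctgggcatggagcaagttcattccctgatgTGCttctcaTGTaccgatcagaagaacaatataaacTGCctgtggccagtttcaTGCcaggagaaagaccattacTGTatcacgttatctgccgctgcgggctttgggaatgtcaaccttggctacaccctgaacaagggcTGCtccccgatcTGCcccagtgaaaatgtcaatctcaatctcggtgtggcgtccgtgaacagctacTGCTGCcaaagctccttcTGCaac
Ly6a has 134 codons in all, of which 12 encode cysteine (all shown), and Ly6e has 136 codons, of which 10 do (all shown). Both runs end with a pair of adjacent cysteine codons and then a cysteine and an asparagine codon, the pattern that closes the domain in Ly6 proteins. Aligned over their coding sequences, Ly6a and Ly6e were 53.8% identical, and their longest shared run was 11 bases.

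Other members are closer to Ly6a. Ly6i, a neighbour 14.6 kb from the Ly6a start, was 86.4% identical to it over the coding sequence, Ly6g 83.2%, Ly6c2 81.7% and Ly6c1 67.0%. The longest runs shared exactly between transcripts were 80 bases with Ly6i, 52 with Ly6c2, 45 with Ly6c1 and 35 with Ly6g. The place of each amplicon within its gene is not given in the sources used here, so how far reads of these close copies could be counted as Ly6a is not known. No other protein-coding gene annotated in the cluster overlaps Ly6a or Ly6e.

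Ly6a was nearly absent from BL/6 CMPs, low in pMT-10 CMPs and high in LSK cells and HSCs. BL/6 CMP replicate 1 had 1 count (0.0923 CPM, exact Poisson 95% interval 0.00234 to 0.514), and replicate 2 had 25 counts (2.02 CPM, 1.31 to 2.98). The pMT-10 CMP libraries had 176 and 242 counts, or 19.4 and 28.0 CPM. The LSK libraries had 2785 and 3458 counts, or 325 and 249 CPM, and the HSC library had 2502 counts, or 331 CPM (318 to 344). In order, the group levels were 1.06 ± 1.36 CPM in BL/6 CMP (SD, n = 2), 23.7 ± 6.10 in pMT-10 CMP (SD, n = 2), 287 ± 54.2 in LSK (SD, n = 2) and 331 in the single HSC library. BL/6 CMP, pMT-10 CMP and LSK did not overlap, and HSC lay just above the higher LSK library.

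**Figure D1:**
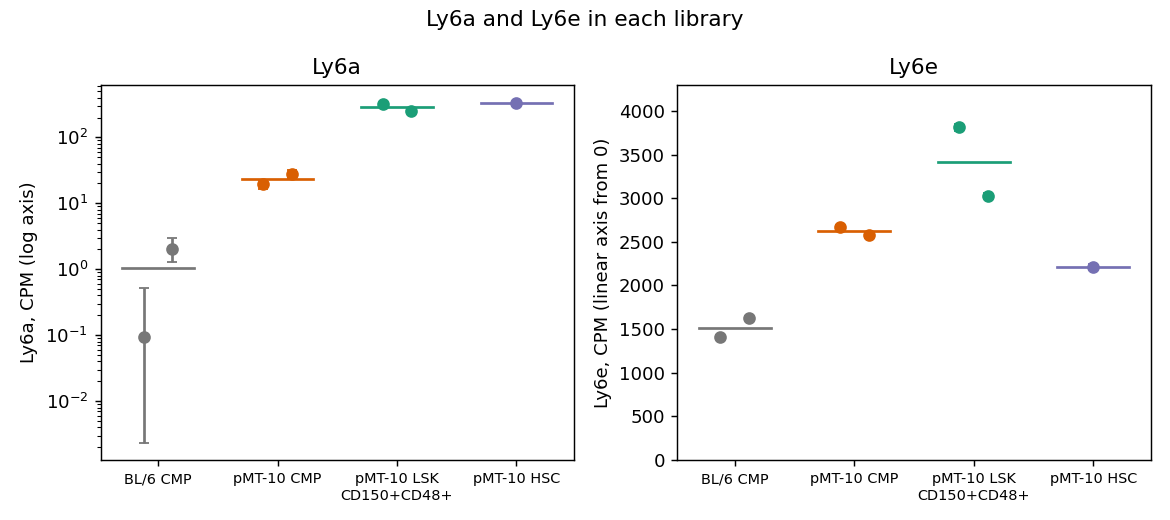
Ly6a (left, log axis) and Ly6e (right, linear axis from 0) in CPM, with 1 point per library in the 4 groups. Ly6a lies at 0.0923 and 2.02 CPM in BL/6 CMP and at 249 to 331 CPM in LSK and HSC, while Ly6e lies between 1406 and 3813 CPM in the 7 libraries. Horizontal bars are group means and vertical bars exact Poisson 95% intervals of the counts, mostly smaller than the points.

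Ly6e was abundant everywhere. It had 15234 and 20084 counts in BL/6 CMP (1406 and 1622 CPM), 24165 and 22209 in pMT-10 CMP (2665 and 2573 CPM), 32633 and 42096 in LSK (3813 and 3028 CPM), and 16703 in HSC (2209 CPM). The lowest level was in BL/6 CMP at 1514 ± 153 CPM (SD, n = 2) and the highest in LSK at 3421 ± 555 CPM (SD, n = 2), with pMT-10 CMP at 2619 ± 65.2 CPM (SD, n = 2) between them. Thus the order of the groups differed from that of Ly6a in the place of HSC, which was highest for Ly6a and next to BL/6 CMP, the lowest group, for Ly6e. No neighbours in the Ly6e order (BL/6 CMP, HSC, pMT-10 CMP, LSK) differed past the threshold of the test. Each gene is read by its own amplicon, so the levels of Ly6a and Ly6e are not compared with each other.

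In CMPs, both tested members were higher in pMT-10 than in BL/6 mice. Ly6a rose by 4.41 ± 0.60 on the log2 scale (SE, 95% interval 3.06 to 5.76, edgeR quasi-likelihood test adjusted p = 0.00218), the rank 56 increase among 11429 genes. The pooled counts differed 21.1-fold (counting interval 14.2 to 32.7). Ly6e rose by 0.79 ± 0.18 (0.38 to 1.21, edgeR adjusted p = 0.0138), 1.72-fold in pooled counts. In this comparison 28.0% of the genes tested passed at an adjusted p under 0.05 (14.3% higher in pMT-10 and 13.7% lower), and the libraries of the groups did not overlap for 66.9%. The median log2 fold change of all tested genes was 0.01. Common myeloid progenitors are conventionally taken from cells without surface SCA-1, though the gate used here is not in the labels.

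The size of the Ly6a difference depends on which BL/6 library is used, as these differed 21.9-fold from each other (counting interval 3.58 to 898). Against replicate 2 alone the pooled pMT-10 CMP counts were 11.7-fold higher (7.81 to 18.3), and against the 1 count of replicate 1 they were 256-fold higher (45.7 to 10131). Fitted without BL/6 CMP replicate 1 the log2 fold change of Ly6a was 3.54 (edgeR adjusted p = 0.00332), and without replicate 2 it was 7.83 (adjusted p = 0.000275), both still called; the library left alone in its group is then taken to vary like the other groups. Over the 11 alternatives its adjusted p ran from 0.000272 to 0.0219. The Ly6e call was lost without either BL/6 library, at 0.69 without replicate 1 (adjusted p = 0.184) and 0.91 without replicate 2 (adjusted p = 0.086), over a range of adjusted p from 0.000991 to 0.184 for the 11 alternatives.

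Markers of other cells also differed between the CMP groups, and their part in the Ly6 differences was not tested. The T and NK cell list of 15 genes summed to 182 and 242 CPM in pMT-10 CMP and to 76.3 and 80.6 in BL/6 CMP. Most of that sum was Nkg7, a granule membrane gene of cytotoxic cells, at 157 and 220 CPM against 71.7 and 76.2, while Cd3d was at 0 in all 7 libraries. Gzmb, a granzyme of cytotoxic cells, was at 20.4 and 17.3 CPM against 1.66 and 1.13 (log2 fold change 3.75 ± 0.35, SE, edgeR adjusted p = 0.00063). Without Nkg7 the list summed to 24.9 and 22.01 CPM against 4.61 and 4.44. The 14 neutrophil genes summed to 496 and 784 CPM against 243 and 207, with Ltf, Mmp9 and Retnlg at 0 in both pMT-10 CMP libraries, where the granule protease genes Ctsg and Prtn3 carried the sum, and the 10 monocyte genes to 188 and 206 against 90.6 and 94.0. Of the tested genes of these 3 lists, 2 of 4, 3 of 10 and 4 of 9 rose and none fell, beside 14.3% of all genes that rose and 13.7% that fell. The median log2 fold changes were 1.12, -1.12 and 1.07. In the neutrophil list Mpo was at 8.38 and 6.02 CPM against 12.1 and 16.8, and Ngp at 0.110 and 0.348 against 4.98 and 1.53, without passing. Within BL/6 CMP, replicate 1, with the lower Ly6a count, had 51 counts of the neutrophil gene S100a9 against 4 in replicate 2. The B-lymphoid sum went the other way, at 22.9 and 45.3 CPM against 70.1 and 96.2. That difference came from Dntt, at 10.9 and 23.98 CPM against 51.96 and 79.1. Without Dntt the list summed to 12.02 and 21.3 CPM against 18.2 and 17.1, so the groups overlapped. In these bulk libraries, fewer cells of a type and less RNA per cell cannot be told apart.

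LSK CD150+CD48+ cells held more Ly6a RNA than pMT-10 CMPs, a difference that follows a sort on its product, since LSK cells were taken as SCA-1+. The log2 fold change of Ly6a was 3.60 ± 0.48 (SE, 2.52 to 4.67, edgeR adjusted p = 0.00318), rank 63 of the increases, and the pooled counts differed 11.8-fold (10.7 to 13.03). Ly6e did not pass, at 0.39 ± 0.18 (-0.03 to 0.80, edgeR adjusted p = 0.192). Of all genes tested 11.8% passed in this comparison (5.92% higher in LSK and 5.92% lower), and 55.7% did not overlap between the groups.

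The Ly6a call in LSK against pMT-10 CMP was lost without either LSK library. The log2 fold change was 3.39 without LSK replicate 1 (edgeR adjusted p = 0.0893) and 3.78 without replicate 2 (adjusted p = 0.06), in a range from 0.000454 to 0.0893 over the 11 alternatives. The size of the difference stayed between 3.35 and 3.88 in all of them. The T and NK cell list summed to 360 and 276 CPM in LSK, of which Nkg7 made up 346 and 264, the neutrophil list to 52.2 and 54.2 CPM and the monocyte list to 80.5 and 102 CPM, against 188 and 206 in pMT-10 CMP; their part in the difference was not tested.

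HSC and LSK cells did not differ detectably in Ly6a. The log2 fold change was 0.21 ± 0.52 (SE, edgeR adjusted p = 0.806), and its interval of -0.96 to 1.37 leaves room for a difference of more than a log2 unit in the direction of HSC. Ly6e was lower in HSC by a log2 fold change of -0.63 ± 0.23 (-1.15 to -0.11, edgeR adjusted p = 0.0857), short of the threshold. It passed when HSC and LSK alone were fitted, at -0.67 (adjusted p = 0.0378, range 0.0378 to 0.297 over the 9 alternatives). In this comparison 18.8% of genes passed (10.6% higher in HSC and 8.15% lower), and for 87.0% the HSC library lay outside the range of the LSK libraries. The HSC group has 1 library, which the fit takes to vary like the other groups, and HSC and LSK were run on different chips.

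Against both CMP groups, HSC was higher in Ly6a. SCA-1 defines the fraction that holds stem cells, and CMPs are conventionally taken from cells without it. These differences may therefore follow the sort, which was not tested, as the HSC and CMP gates are not in the labels. Against pMT-10 CMP the log2 fold change was 3.80 ± 0.52 (SE, 2.63 to 4.98, edgeR adjusted p = 0.00175), rank 260 of the increases, with a pooled ratio of 14.0 (12.6 to 15.6). Against BL/6 CMP, on the same chip, it was 8.22 ± 0.66 (6.73 to 9.70, edgeR adjusted p = 9.66e-05), rank 25, with a pooled ratio of 296 (201 to 453). Against BL/6 CMP replicate 2 alone the ratio was 164 (111 to 254), and the fitted value was 7.30 without replicate 1 and 11.57 without replicate 2. Ly6e did not pass in either, at -0.25 ± 0.23 against pMT-10 CMP (-0.76 to 0.27, edgeR adjusted p = 0.45) and 0.55 ± 0.22 against BL/6 CMP (0.05 to 1.04, adjusted p = 0.111). Against pMT-10 CMP 25.5% of genes passed (13.8% higher in HSC and 11.7% lower) and against BL/6 CMP 20.3% (11.8% higher and 8.50% lower). The HSC library lay outside the range of the CMP libraries for 79.3% and 90.6% of genes. These comparisons share the HSC and CMP libraries with those above and are not independent of them.

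**Figure D2:**
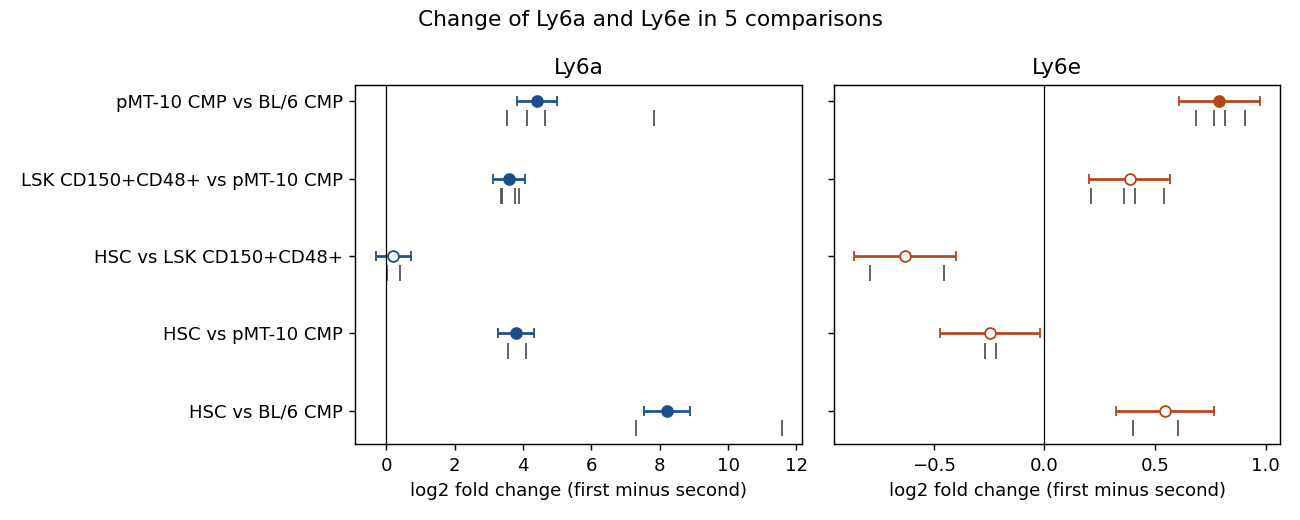
Log2 fold changes of Ly6a (left) and Ly6e (right) in the 5 comparisons, as first group minus second, with bars of 1 SE; filled points passed at an adjusted p under 0.05. Ly6a passed in every comparison but HSC against LSK, and Ly6e passed in pMT-10 against BL/6 CMP, at 0.79.

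Stem cell, endothelial and monocyte markers also differed between these populations, and their part in the Ly6a differences was not tested. The summed CPM of 9 stem cell genes was 97.8 to 107 in pMT-10 CMP, 137 and 161 in BL/6 CMP, 271 and 280 in LSK, and 686 in HSC. Much of the lower sum in pMT-10 CMP was Mllt3, without which the sums were 86.6 and 103 CPM in pMT-10 CMP and 102 and 105 in BL/6 CMP. Slamf1 was also lower in pMT-10 CMP, at a mean of 12.4 against 22.4 CPM (-0.85 ± 0.23, SE, edgeR adjusted p = 0.0242). SCA-1 is also a known surface protein of endothelial cells. The 10 endothelial genes summed to 603 CPM in HSC and 236 to 314 in the other libraries. Of this sum Vwf, which stem cells and megakaryocytes also express, made up 315 CPM in HSC and 21.6 to 38.0 elsewhere. Tie1, a receptor of endothelial and stem cells, was at 85.0 CPM in HSC and 9.48 to 18.2 elsewhere (log2 fold change against LSK 2.71 ± 0.36, SE, edgeR adjusted p = 0.00212), and Emcn at 17.5 CPM and 0.504 to 2.50 elsewhere (4.87 ± 0.58, adjusted p = 0.00151). Plvap went the other way, at 9.26 CPM in HSC against group means of 23.3 to 58.0 CPM elsewhere (log2 fold change against LSK -1.61 ± 0.36, SE). Egfl7 was lowest in HSC, at 23.9 CPM against 26.3 to 66.6, and Pecam1 was at 118 CPM against 91.6 to 168. Cdh5 and Fabp4 were at 0 in HSC and, but for 1 count of Cdh5, in the other libraries too, so they do not set HSC apart. The monocyte list summed to 351 CPM in HSC, of which Lyz2 made up 319, against 188 and 206 in pMT-10 CMP, 90.6 and 94.0 in BL/6 CMP, and 80.5 and 102 in LSK. Lyz2 was higher in HSC than in BL/6 CMP by 2.22 ± 0.23 (edgeR adjusted p = 0.000315), while Csf1r and Cx3cr1 were at 0 in HSC.

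The 3 members that could not be tested were at or near 0. Ly6d, the lymphoid progenitor marker, had 4 counts in pMT-10 CMP replicate 1 (0.441 CPM) and 0 in the other 6 libraries. Ly6g, the neutrophil marker, had 1 count in LSK replicate 2 (0.0719 CPM) and 0 elsewhere. Ly6k had 0 counts in all 7. These levels lie at about the limit that a count of 0 allows, so no difference between groups was detectable at this depth. With no filter on low counts, Ly6d and Ly6g entered the fit and neither was called.

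The other genes of the cluster were also low. Of 14 protein-coding genes between Ly6d and Ly6g, 12 were in the tables, and 10 of those had at most 10 counts in every library. Ly6k, Gml, Gml2, Cyp11b1 and 2010109I03Rik had 0 counts in all 7. Ly6i, the gene closest to Ly6a in sequence and the next one to it on the chromosome, had 3 and 3 counts in pMT-10 CMP, 0 and 0 in BL/6 CMP, 2 and 1 in LSK and 10 in HSC. It reached the minimum count of 10 in the HSC library alone, the group where it was highest. Its test for HSC against BL/6 CMP is therefore not read as a difference. With BL/6 CMP at 0 and few counts elsewhere, its fitted fold change is not given. Among the 12 genes measured, nearly all reads thus came from Ly6a and Ly6e. Ly6c1 and Ly6c2, which follow Ly6a on the chromosome, were not among them.

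**Figure D3:**
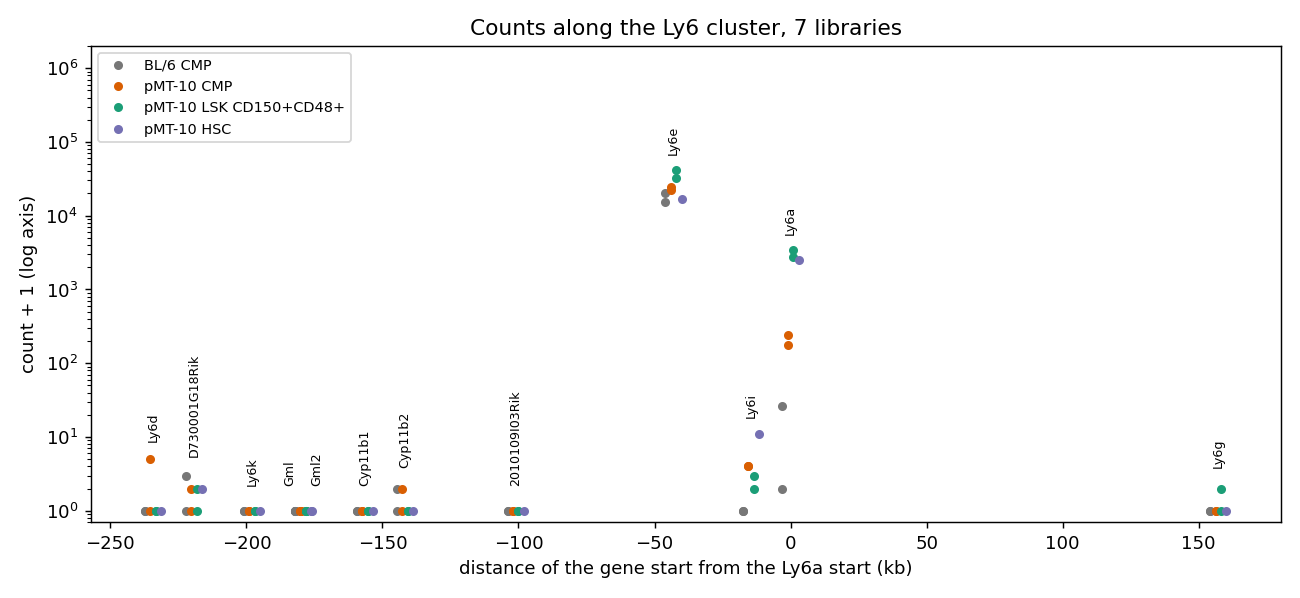
Counts plus 1 (log axis) of the protein-coding genes of the Ly6 cluster in the 7 libraries, against the distance of each gene's start from the Ly6a start in kb; colours mark the 4 groups. Ly6e (-43 kb) and Ly6a (0 kb) stand above the other 10 measured genes, which have at most 10 counts in any library.

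Beyond the 7 genes, most of the Ly6 and urokinase receptor (Ly6/uPAR) superfamily was too low to test. Of 31 further genes of the family in the tables, 7 were tested. Of these, 1 rose and none fell in pMT-10 against BL/6 CMP, beside 14.3% of all genes that rose and 13.7% that fell. Their median log2 fold change was 1.54, but some of them had few counts in the CMPs. Ly6g5b had 27 and 3 counts in pMT-10 CMP and 8 and 5 in BL/6 CMP. Lynx1 had 12 and 0 against 1 and 3, and Ly6i 3 and 3 against 0 and 0. The median is therefore not read as a shift of the family. The gene that rose was Spaca4, known as a sperm membrane protein, with 179 and 180 counts in pMT-10 CMP and 19 and 26 in BL/6 CMP. Its level was 20.3 ± 0.785 CPM against 1.93 ± 0.245 (SD, n = 2 in both), and the log2 difference was 3.39 ± 0.38 (SE, edgeR adjusted p = 0.00132). In LSK it had 46 and 41 counts and was lower than in pMT-10 CMP, at -2.31 ± 0.36 (edgeR adjusted p = 0.00551), the opposite direction to Ly6a. Spaca4 lies inside Fam83e on the other strand, and strand use in the counting is not given in the sources used here, so reads of these genes cannot be told apart.

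Plaur, the urokinase receptor that binds plasminogen activator at the cell surface, was highest in HSC. It stood at 17.7 CPM there, against 6.31 and 4.75 in LSK, 8.49 and 6.72 in pMT-10 CMP and 6.55 and 4.68 in BL/6 CMP. It passed in HSC against LSK at 1.69 ± 0.39 (SE, edgeR adjusted p = 0.0185), against BL/6 CMP at 1.66 ± 0.39 (adjusted p = 0.0167) and against pMT-10 CMP at 1.22 ± 0.39 (adjusted p = 0.0461). Cd59a, which blocks the complement membrane attack complex, was at 24.8 to 45.2 CPM in the 7 libraries and was not called in any comparison.

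Few genes that build and attach the GPI anchor were called. Of 27 tested, 2 rose and 3 fell in pMT-10 against BL/6 CMP, shares no larger than the 14.3% and 13.7% of all genes, with a median of -0.07. Pigs and Gpaa1 encode subunits of the transamidase that transfers the finished anchor to a protein. Pigs fell from 203 and 215 CPM in BL/6 CMP to 109 and 83.1 in pMT-10 CMP (log2 fold change -1.13 ± 0.19, SE, edgeR adjusted p = 0.0044) and was higher again in LSK, at 232 and 206 CPM (1.19 ± 0.19 against pMT-10 CMP, adjusted p = 0.00668), the 1 gene of the list called there. Gpaa1 rose from 21.9 and 28.6 to 64.6 and 43.1 CPM in the CMPs (1.09 ± 0.26, edgeR adjusted p = 0.014). Pigm, the first mannosyltransferase of the anchor, fell (-0.83 ± 0.21, edgeR adjusted p = 0.0178), and Dpm2, which helps to make the mannose donor, rose (0.87 ± 0.23, adjusted p = 0.0241). In HSC, Pigq, which acts in the first step of anchor synthesis, was lower than in each other group. Its log2 fold changes were -1.47 ± 0.22 against LSK (edgeR adjusted p = 0.00382), -1.49 ± 0.22 against pMT-10 CMP (adjusted p = 0.00251) and -1.32 ± 0.22 against BL/6 CMP (adjusted p = 0.00354). Pigx was higher in HSC, by 1.17 ± 0.36 against LSK and 1.48 ± 0.36 against pMT-10 CMP. Of the 27 genes, 1 rose and 3 fell in HSC against LSK, beside 10.6% and 8.15% of all genes. Against pMT-10 CMP 3 rose and 2 fell, beside 13.8% and 11.7%. Against BL/6 CMP none rose and 2 fell, beside 11.8% and 8.50%.

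Of 14 tested genes for other GPI-linked surface proteins, 4 rose and 2 fell in pMT-10 against BL/6 CMP, beside 14.3% and 13.7% of all genes, with a median of 0.67. Bst2 (tetherin), an antiviral protein that interferons induce, rose from 107 and 93.6 CPM to 275 and 287 (log2 fold change 1.49 ± 0.18, SE, edgeR adjusted p = 0.00162). Cd48, which was also a sort marker of the LSK cells, rose from 20.4 and 17.9 to 44.3 and 79.5 CPM (1.69 ± 0.33, edgeR adjusted p = 0.00641), and Thy1 from 4.43 and 4.28 to 9.37 and 13.3 CPM (1.38 ± 0.32, adjusted p = 0.014). Gpc4, a glypican proteoglycan, fell from 6.18 and 6.30 to 0.441 and 0.463 CPM (-3.75 ± 0.71, edgeR adjusted p = 0.00616).

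In LSK against pMT-10 CMP none of the 14 rose and 3 fell, beside 5.92% of all genes in each direction. Cd52 was lower by a log2 fold change of -1.84 ± 0.26 (SE, edgeR adjusted p = 0.00408), Thy1 by -1.67 ± 0.33 (adjusted p = 0.0149) and Cd24a by -1.44 ± 0.37 (adjusted p = 0.036). In HSC against LSK, where Ly6a did not pass, 5 of the 14 rose and 1 fell, beside 10.6% and 8.15% of all genes. Procr, the endothelial protein C receptor (EPCR) used to mark stem cells, was at 38.5 CPM in HSC against 0 and 0.719 CPM in LSK (6.46 ± 0.70, edgeR adjusted p = 0.00117), and Sema7a at 30.4 against 2.57 and 1.73 CPM (3.84 ± 0.45, adjusted p = 0.00142). Cd48 was lower in HSC, at 6.48 CPM against 63.6 and 40.5 (edgeR adjusted p = 0.0048).

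Interferon signalling genes were given because Ly6a and Ly6e are interferon-induced. Of 18 tested, 10 rose and 2 fell in pMT-10 against BL/6 CMP, with a median log2 fold change of 0.93 against 0.01 over all genes; 14.3% of all genes rose and 13.7% fell. Irf1, a transcription factor that interferon-gamma induces, rose from 63.2 and 76.2 to 420 and 331 CPM (2.43 ± 0.20, SE, edgeR adjusted p = 0.000403). Ciita, which switches on MHC class II genes, rose from 0.0923 and 1.29 to 49.7 and 48.2 CPM (6.06 ± 0.55, edgeR adjusted p = 0.000554). Like Ly6a it had 1 count in BL/6 CMP replicate 1. Stat2, a mediator of type I interferon signals, rose by 2.21 ± 0.20 and Nlrc5, which switches on MHC class I genes, by 1.64 ± 0.24 (edgeR adjusted p = 0.000554 and 0.00262). Irf2, which can oppose IRF1 at its target genes, fell by 1.10 ± 0.19 (edgeR adjusted p = 0.00418).

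In LSK against pMT-10 CMP, where Ly6a rose by 3.60, 2 of these 18 genes rose and 1 fell, beside 5.92% of all genes in each direction, with a median of 0.25. Irf1 rose by 0.73 ± 0.19 (SE, edgeR adjusted p = 0.0416) and Irf2 by 0.84 ± 0.19 (adjusted p = 0.0226), while Irf8 fell by 0.79 ± 0.21 (adjusted p = 0.0442). In HSC against BL/6 CMP 6 rose and 1 fell, beside 11.8% and 8.50% of all genes, led by Irf1 (3.17 ± 0.23, edgeR adjusted p = 7.56e-05) and Ciita (7.23 ± 0.59, adjusted p = 0.000109). The fall was in Ifngr1, a chain of the interferon-gamma receptor, from 482 and 446 CPM to 149 CPM. In HSC against LSK 3 rose and 1 fell, beside 10.6% and 8.15% of all genes. In HSC against pMT-10 CMP 3 rose and 4 fell, beside 13.8% and 11.7%.

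**Figure D4:**
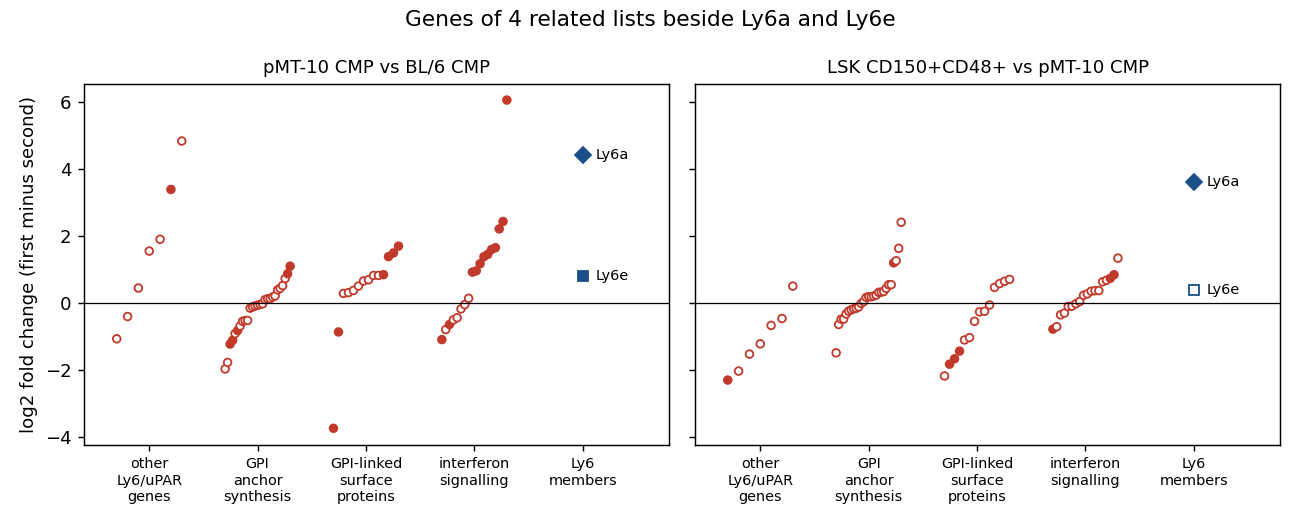
Log2 fold changes of the tested genes of 4 lists beside Ly6a and Ly6e, in pMT-10 against BL/6 CMP (left) and in LSK against pMT-10 CMP (right); each point is a gene and filled points passed at an adjusted p under 0.05. In the CMPs 10 of 18 interferon signalling genes rose; in LSK against pMT-10 CMP Ly6a, at 3.60, lies above every gene of the 4 lists.

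The genes whose levels tracked each member most closely were found from Pearson's r of log2(CPM + 1) over the 7 libraries, among 6816 tested genes with a mean of at least 20 CPM. For Ly6a these were Myl6b (r = 0.992), H2-K1 (0.987), Rnf122 (0.985), Gbp5 (0.981) and Atp2a3 (0.977). H2-K1, an MHC class I heavy chain, went from 1852 and 1968 CPM in BL/6 CMP through 2633 and 2910 in pMT-10 CMP to 4555 and 4845 in LSK and 4977 in HSC. Gbp5 encodes a guanylate-binding protein that interferons induce. For Ly6e they were Mlkl (0.987), the effector of necroptosis, Ntan1 (0.981), Cdipt (0.979), which makes the phosphatidylinositol that anchors start from, Irgm1 (0.977), an interferon-induced GTPase, and Spag7 (0.973). The lists for the 2 genes had no member in common. With 7 libraries in 4 groups that share strain, population and chip, these values describe the ranking only.

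**Figure D5:**
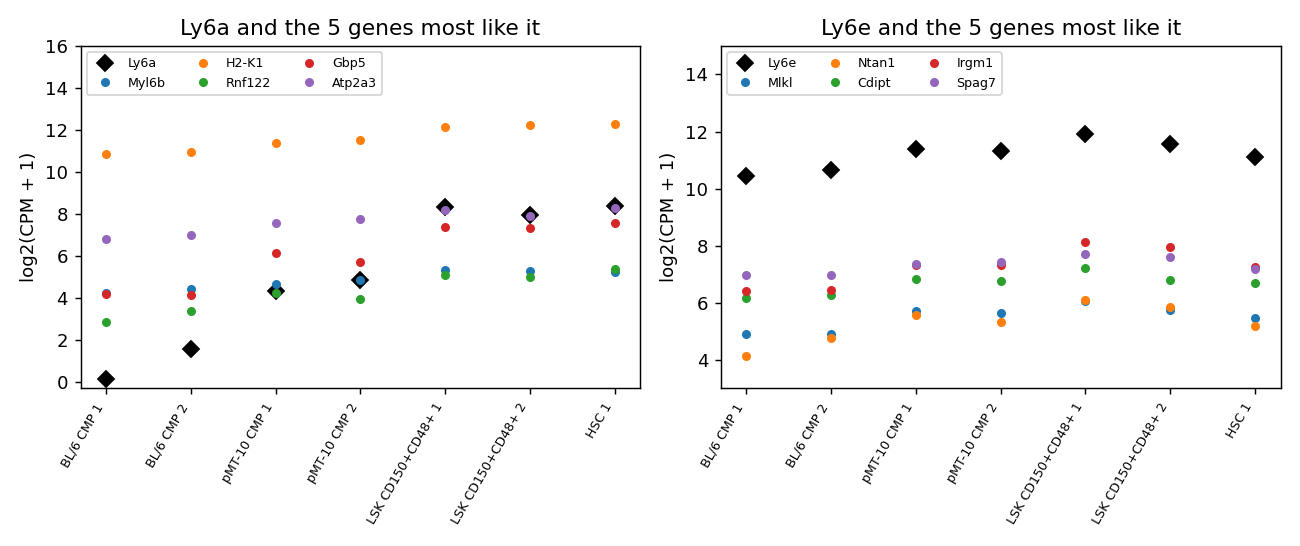
Log2(CPM + 1) of Ly6a (left) and Ly6e (right) as diamonds and of the 5 genes with the highest Pearson's r to each as circles, in the 7 libraries. The Ly6a set is lowest in BL/6 CMP and high in both LSK and HSC, and Ly6e and its 5 genes are lower in HSC than in both LSK libraries.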

How the data were processed

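RNA of sorted cells had been made into libraries with the Ion AmpliSeq Transcriptome mouse kit, which amplifies a short stretch of each gene, per the labels' protocols. The authors deposited raw read counts per gene, with a table for each of the 2 chips, and the build was mm10 according to the submitters' processing notes. How reads were aligned and counted is not given in the sources used here. Because reads carry no molecular identifiers, intervals and the limit at 0 counts cover counting error alone.

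Counts of all 7 libraries were fitted once with edgeR 4.0.16 in R 4.3.3, after filterByExpr (minimum count 10) and TMM scaling, with 1 mean per group, 3 residual degrees of freedom and robust quasi-likelihood F-tests. Benjamini-Hochberg adjustment ran over 11429 genes, and an adjusted p under 0.05 counts as called. CPM use TMM-scaled totals, and the floor of 3 counts uses raw totals. Pooled ratios are of summed counts over summed scaled totals. The script was tested on simulated data. Sequences were read with Biopython 1.88.

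The members and gene lists were chosen with earlier results of these data known. Genes named are the members, up to 4 called genes with the smallest p per list and comparison, and the 5 most like each member with a mean of 5 CPM or more; Cd59a and the label-check and marker genes were chosen for their function with their values known. Alternatives were DESeq2 1.42.0, other scaling, filters and samples, a replicate block and leaving out each replicate.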

Additional observations from a re-analysis of the deposited data

How the results depend on the processing

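No log2 fold change of Ly6a or Ly6e changed sign among 98 refitted values over the 5 comparisons, and 92 of them kept their side of the threshold. There is 1 value per gene, comparison and setting, so many come from the same fit and are not independent. In pMT-10 against BL/6 CMP, leaving out 1 library gave 1 to 2 members called and 582 (without BL/6 CMP replicate 1) to 5268 (without pMT-10 CMP replicate 1) genes called, beside 3204 with all libraries. In LSK against pMT-10 CMP it gave 0 to 1 members and 44 (without LSK replicate 1) to 4274 (without pMT-10 CMP replicate 1) genes, beside 1354. Leaving out 1 library gave 266 to 352 genes in HSC against LSK, 4635 to 5222 in HSC against pMT-10 CMP and 815 to 918 in HSC against BL/6 CMP, beside 2147, 2912 and 2320. With only the groups compared in the fit, genes called were 595 in LSK against pMT-10 CMP, 3987 in HSC against LSK, 1042 in HSC against pMT-10 CMP and 6127 in HSC against BL/6 CMP; Ly6e then passed in HSC against LSK (1 member called) and in HSC against BL/6 CMP (2 members called, Ly6e at 0.55, edgeR adjusted p = 6.21e-06, range 6.21e-06 to 0.513 over 9 alternatives). With no filter, 2237 genes were called in LSK against pMT-10 CMP. The cause of these shifts was not tested, except that a fit on fewer libraries estimates the spread from fewer. Same-numbered libraries did not deviate together (r = -0.04 for BL/6 and pMT-10 CMP, -0.10 for BL/6 CMP and LSK, -0.01 for pMT-10 CMP and LSK, across 11429 genes). With 2 libraries per group, a low r cannot exclude that the numbers pair the samples. The replicate block gave 2950, 1203, 1566, 2091 and 1822 genes called in the order pMT-10 against BL/6 CMP, LSK against pMT-10 CMP, and HSC against LSK, pMT-10 CMP and BL/6 CMP. It changed no call of a member. Groups of 1 or 2 libraries, a single HSC library that could not be left out and 1 to 25 counts of Ly6a in BL/6 CMP limit the precision of these values.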
